A study of Mus musculus with 13 samples.

Results

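The genes described here are 36 genes of DNA repair and of the DNA damage checkpoint, chosen by symbol from the main repair pathways. All 36 were matched to a gene identifier among the 55487 genes in the count tables, and all 36 passed the filter on low counts in each comparison. They were measured by poly-A RNA sequencing in 13 libraries of mouse embryonic fibroblasts (MEFs), cells grown out of dissociated mouse embryos. The WT libraries were 3 primary cultures, from clones 3, 4 and 5 taken from different embryos, and the 3 immortalized lines that carry the same clone numbers. The Prkd3-/- libraries were 3 primary cultures, from clones 13, 14 and 15, and 4 immortalized lines named 13, 13a, 14 and 15. Prkd3 encodes protein kinase D3, a serine/threonine kinase. How the allele was made, and how line 13a relates to line 13, are not given in the sources used here. Per the labels, which give both genotypes 1 protocol, the culture medium was DMEM with 10% fetal calf serum, non-essential amino acids, antibiotics and β-mercaptoethanol. No gene or agent was added to immortalize the cells: senescent cultures were held in 20% serum until colonies grew out, so a line descends from the few cells that escaped. The comparisons ask how these genes differ between the primary and the immortalized state within each genotype, and whether that difference itself differs between genotypes.

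Some facts of the whole series bear on every value. Assigned read pairs numbered 55436367 to 90654323 in the WT libraries and 35273408 to 100441756 in the Prkd3-/- libraries, so that 3 read pairs were worth at most 0.085 CPM at these totals. Levels are given as CPM, counts scaled to a common total (after TMM scaling, edgeR's correction for composition, over the 13 libraries). The spread of a gene between libraries of a group beyond counting error (common biological coefficient of variation) was 5.68% in WT primary MEFs, 40.9% in WT lines, 32.4% in Prkd3-/- primary MEFs and 49.6% in Prkd3-/- lines. Prkd3 itself counted 69.2 to 93.7 CPM in WT libraries and 33.6 to 61 CPM in the libraries labelled Prkd3-/-, lower in all 7 but not absent, and gene counts do not show which exons the reads came from. The 2 genotypes were counted in separate tables, and genotype and table cannot be told apart. Of 10 fibroblast markers, none was at 0 in any library, and their summed level was 41723 to 42650.1 CPM in WT primary MEFs, 32343 to 71109.9 in WT lines, 24832 to 37316 in Prkd3-/- primary MEFs and 19037 to 31809 in Prkd3-/- lines. Col1a1 alone counted 16625 to 17015 CPM in WT primary MEFs, so the sum shows little of the less abundant markers. The log2 fold change (Log2FC), immortalized over primary, of single fibroblast markers ran from -2.39 to 0.68 in WT (5 of 10 positive). In Prkd3-/- it ran from -1.45 to 2.33 (4 of 10 positive). The 10 macrophage markers summed to 663 to 683 CPM in WT primary MEFs and 33.5 to 101 in WT lines. In the Prkd3-/- libraries they summed to 89.9 to 1008 CPM in primary MEFs and 10.3 to 178 in the lines, where 5 of them (Adgre1, C1qa, C1qc, Tyrobp and Ptprc) were at 0 in line 13. Of the 5 endothelial, 5 epithelial and 5 skeletal muscle markers, the summed levels reached at most 28.7, 3.93 and 0.601 CPM in any library. The macrophage sums were lower in every WT line than in every WT primary library and overlapped between states in Prkd3-/-, and their part in the differences between primary and immortalized libraries was not tested. In bulk RNA, fewer cells of a type and less RNA per cell cannot be told apart.

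Cells answer DNA damage with kinases that sense it and with separate enzyme sets that mend each kind of lesion. ATM and ATR are the apical checkpoint kinases, for broken ends and for stalled replication respectively, and they act through CHK2 and CHK1, with 53BP1 and MDC1 as scaffolds on damaged chromatin. Broken ends are rejoined either by homologous recombination, which copies the sister chromatid and needs BRCA1, BRCA2 and their partners, or by end joining, which ligates the ends through Ku, DNA-PKcs, XRCC4 and ligase IV. Crosslinks, mispaired bases, bulky adducts and damaged bases are handled by the Fanconi anemia, mismatch, nucleotide excision and base excision pathways. Recombination and crosslink repair genes are largely transcribed in cycling cells around S phase, many of them through E2F sites, and cultured fibroblasts rely on the same checkpoint when they enter senescence. The 36 genes were sorted into 10 groups by these roles.

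Levels differed widely among the 36 genes. Per length (RPKM, reads per kilobase of the exons listed in the file and scaled as CPM), the most abundant gene in WT primary MEFs was Apex1, the main abasic-site endonuclease, at 31.1 ± 0.69 RPKM (SD, n = 3). It was followed by Parp1, the sensor of strand breaks, at 14.8 ± 0.19 RPKM, and by Msh6, which recognizes mispaired bases, at 10.8 ± 0.38 RPKM. At the low end stood Palb2, the adaptor between BRCA1 and BRCA2, at 0.32 ± 0.019 RPKM, and Mutyh, an adenine glycosylase, at 0.584 ± 0.093 RPKM. The checkpoint kinases were at 3.82 RPKM for Atm, 2.87 for Chek2, 1.37 for Chek1 and 0.882 for Atr. This order depends on the listed exon length, 23629 bases for Atr, 10338 for Atm, 4635 for Chek1 and 3001 for Chek2. By CPM, not divided by length, Atm was at 39.5, Atr at 20.8, Chek2 at 8.6 and Chek1 at 6.35. Overlapping genes limit some of these levels, because the WT table was counted with each read pair given to every gene it overlaps. Apex1 shares 61.7% of its exon bases with Pip4p1, Ddb2 shares 23.8% with Acp2, Fanci 16% with Polg, Rad54l 15.4% with Lrrc41, Trp53bp1 15% with Tubgcp4, Ogg1 10.6% with Camk1 and Fanca 10.5% with Zfp276. For these 7 genes the counts hold an unknown share of the neighbour's reads, and strand was not used in the WT counting.

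Promoter sequences are shown for 4 of the genes because they held E2F-type letters, 1 of 2 motifs searched. E2F factors drive transcription at the start of S phase. RefSeq promoters on GRCm38.p6, running from 250 bases before to 50 bases after a gene's start, were matched for 28 of the 36 genes (31 promoters). The letters TTTCCCGC, TTTCGCGC, TTTGCCGC or TTTGGCGC, on either strand, were found in 6 of these 31 promoters (19.4%) against 2.26% of all 32851 promoters. The 6 were those of Bard1, Brca2, Chek2, Mdc1, Msh6 and Xrcc6. The letters TTTGAA, the core of the cell cycle homology region, were found on either strand in 1 of the 31 (3.23%), that of Bard1, against 17.9% of all promoters. The 4 promoters below read 5′ to 3′ along the gene's strand, with the E2F-type letters (or their complement) in capitals. Bard1, Brca2, Mdc1, Msh6 and Xrcc6 had their highest CPM of the Prkd3-/- libraries in line 13, and Chek2 did not. Line 13 was the highest for 25 of all 36 genes, so these genes do not set the motif apart.
Bard1, chr1:71102923-71103222, minus strand: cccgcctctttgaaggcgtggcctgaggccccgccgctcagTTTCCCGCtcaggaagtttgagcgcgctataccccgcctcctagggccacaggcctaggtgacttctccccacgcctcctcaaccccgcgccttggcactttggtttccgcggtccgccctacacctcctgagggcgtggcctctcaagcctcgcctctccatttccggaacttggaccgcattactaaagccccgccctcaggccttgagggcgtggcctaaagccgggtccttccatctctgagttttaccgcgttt
Brca2, chr5:150522371-150522670, plus strand: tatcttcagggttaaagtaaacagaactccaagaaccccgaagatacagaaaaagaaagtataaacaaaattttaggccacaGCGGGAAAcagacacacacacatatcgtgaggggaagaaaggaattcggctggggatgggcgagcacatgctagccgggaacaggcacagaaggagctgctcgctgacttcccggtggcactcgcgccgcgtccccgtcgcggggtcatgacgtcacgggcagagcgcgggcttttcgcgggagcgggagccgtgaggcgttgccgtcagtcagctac
Msh6, chr17:87974800-87975099, plus strand: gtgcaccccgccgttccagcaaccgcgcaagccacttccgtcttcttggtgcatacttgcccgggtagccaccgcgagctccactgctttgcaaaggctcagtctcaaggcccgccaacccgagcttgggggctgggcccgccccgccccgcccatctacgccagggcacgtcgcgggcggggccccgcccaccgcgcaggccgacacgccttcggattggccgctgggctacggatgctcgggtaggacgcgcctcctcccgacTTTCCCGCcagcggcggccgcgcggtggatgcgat
Chek2, chr5:110839733-110840032, plus strand: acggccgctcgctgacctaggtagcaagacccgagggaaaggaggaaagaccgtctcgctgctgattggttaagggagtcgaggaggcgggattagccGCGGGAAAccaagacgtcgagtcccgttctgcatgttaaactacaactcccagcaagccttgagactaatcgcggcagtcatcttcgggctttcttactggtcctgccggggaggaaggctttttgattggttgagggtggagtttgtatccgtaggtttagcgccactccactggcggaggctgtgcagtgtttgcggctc
A match is a description of the letters and not a mapped binding site. None of the 4 E2F words was found in this window for Brca1, Chek1, Fanca, Fanci, Blm or Parp1. For Chek1 the window ended in gcgggaa, which is GCGGGAAA without its last base. A word that crosses the edge of the window would not be found.

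In WT MEFs, none of the 36 genes passed the test for a change with immortalization. No gene passed either an adjusted p-value under 0.01 with an absolute Log2FC of at least 1 (1.82% of the 19836 genes tested did) or an adjusted p-value under 0.05 alone (5.27% did), by edgeR's quasi-likelihood test. At an unadjusted p under 0.05 there were 2, Atr and Msh6, against 19.7% of all genes. DESeq2 called 1 of the 36 at an adjusted p-value under 0.05, Atr (adjusted p-value 0.0187), against 10.8% of the genes it tested. Without line 3, edgeR called 4 (Brca1, Palb2, Rad54l and Parp1, all lower in lines 4 and 5), against 12.2% of all genes. The Log2FC values, immortalized over primary, were positive for 18 genes and negative for 18. Their median was 0.0060, beside 0.036 for all genes tested, and they ran from -0.61 (Palb2) to 0.39 (Atr). For 30 of the 36 (83.3%) the 95% interval of the Log2FC lay within a 2-fold change in either direction, which was so for 58.3% of all genes tested. A change above 2-fold was therefore outside the interval for most of these genes. The exceptions were Chek1, Brca1, Bard1, Palb2, Fancd2 and Mutyh. Library size alone in place of TMM moved the median of all genes to -0.098 and that of the 36 to -0.13, with 11 positive, so the even split of signs holds for TMM.

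**Figure D1:**
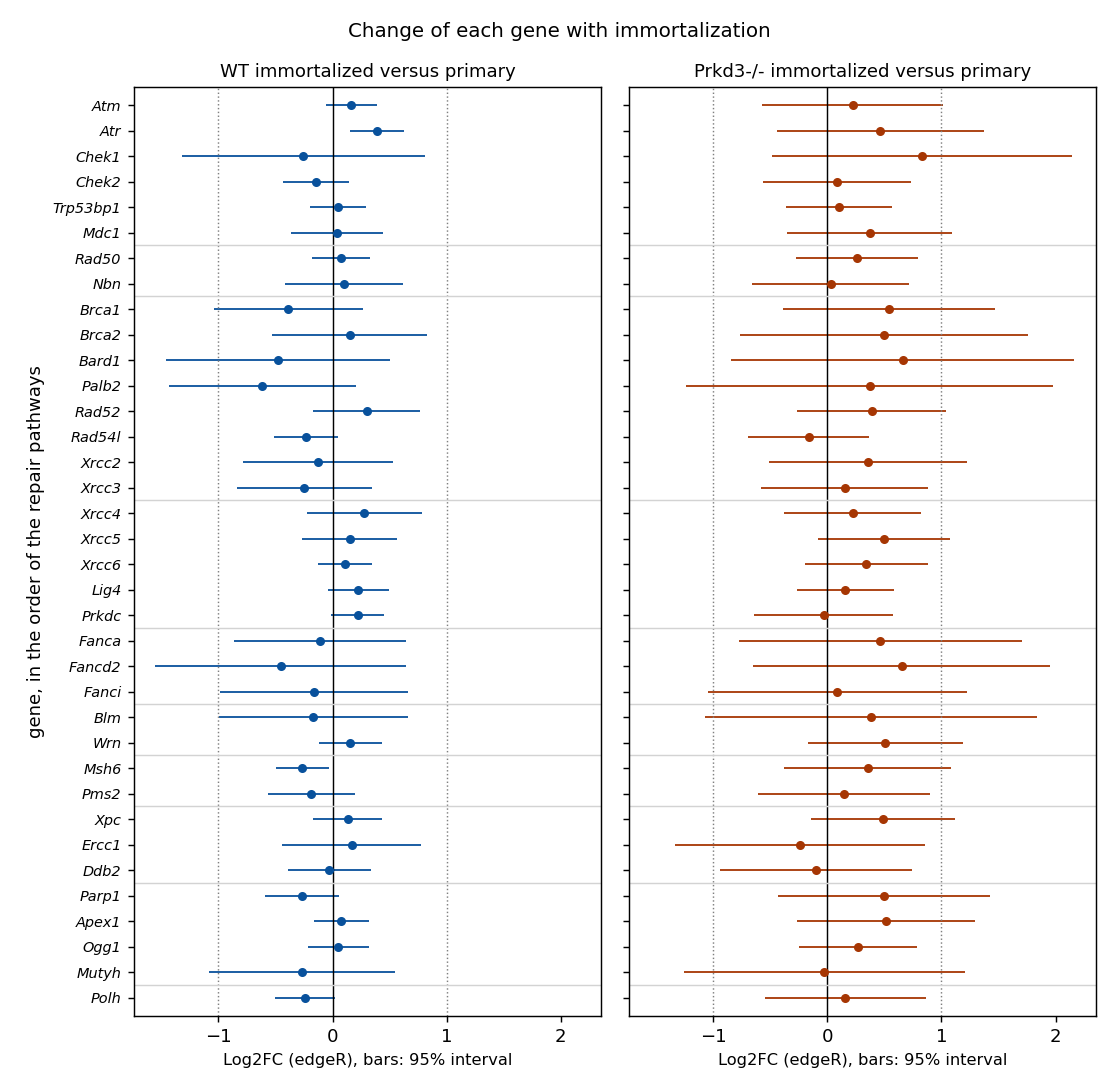
Log2FC of each of the 36 genes, immortalized over primary, with its 95% interval, in WT MEFs (left) and in the libraries labelled Prkd3-/- (right); dotted lines mark a 2-fold change. In WT the values lie between -0.61 and 0.39, and in Prkd3-/- most points lie right of 0 with intervals that all include 0.

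Among the damage signalling genes, Atr stood apart in WT. It lies at chr9:95857597-95951781 (GRCm38, plus strand). Its CPM was 19.1, 21.9 and 21.5 in the primary libraries of clones 3, 4 and 5 and 28.1, 25.9 and 27.8 in the lines, 20.8 ± 1.5 against 27.3 ± 1.2 (SD, n = 3 and 3). Every line lay above every primary library, yet the adjusted p-value was 0.0862 (Log2FC 0.39, SE 0.095, 95% interval 0.16 to 0.62). Atm, the kinase for broken ends, was also higher in every line, by a smaller step (Log2FC 0.16, SE 0.090, adjusted p-value 0.385). Chek1 encodes the kinase downstream of ATR. Its CPM was 6.55, 5.79 and 6.72 in primary MEFs and 8.7, 4.71 and 2.56 in lines 3, 4 and 5. The lines lay on both sides of the primary libraries, and line 3 was 3.4-fold above line 5. Chek2 was lower in every line by a small step (-0.14). Trp53bp1 (0.050) and Mdc1 (0.040) overlapped between states. Both MRN complex genes, Rad50 and Nbn (0.10), which tether and trim broken ends, overlapped too. Rad50 had 44.3, 41.5 and 43 CPM in primary MEFs and 41.3, 43.7 and 50.5 in the lines (Log2FC 0.074, SE 0.10, adjusted p-value 0.743).

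All 5 end joining genes had a positive Log2FC in WT lines, from 0.11 for Xrcc6 to 0.28 for Xrcc4, and none passed the test. Prkdc encodes the DNA-dependent protein kinase that Ku recruits. Its CPM was 25.7, 27.5 and 26.9 in primary MEFs and 31.3, 33.4 and 28.4 in the lines (Log2FC 0.22, SE 0.093, adjusted p-value 0.271), and the states did not overlap. Ligase IV (Lig4, Log2FC 0.23, SE 0.11, adjusted p-value 0.325) and the Ku subunit Xrcc6 (Log2FC 0.11, SE 0.096, adjusted p-value 0.583) did not overlap either. The other Ku subunit, Xrcc5, did, with 27.6, 27.1 and 25.1 CPM against 29.2, 36.1 and 23.4. Over all 36 genes, 5 had every line above every primary library (Atm, Atr, Xrcc6, Lig4 and Prkdc), against 13.9% of all genes tested, and 5 had every line below (Chek2, Rad54l, Msh6, Parp1 and Polh), against 17.4%. These shares are near the background.

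Homologous recombination genes leaned the other way, with 6 of 8 negative in WT and a median Log2FC of -0.24. The lines differed in this. In line 3 Brca2 (0.57), Xrcc2 (0.32), Rad52 (0.31), Bard1 (0.14) and Brca1 (0.13) were above the primary mean. Palb2 (-0.017), Rad54l (-0.026) and Xrcc3 (-0.23) were below it there. Rad54l, a motor protein of strand invasion, had the smallest p of the group, at 47.4, 48 and 48.1 CPM in primary MEFs and 47, 38.6 and 36.6 in the lines (Log2FC -0.23, SE 0.11, adjusted p-value 0.331). Line 3 lay just under the primary libraries and lines 4 and 5 lower. Lrrc41, the overlapping neighbour of Rad54l, was also lower in lines 4 and 5. Its CPM was 95.5, 97.4 and 98 in primary MEFs and 96.4, 79.9 and 79.9 in the lines. Rad54l lies on chromosome 4, and its log2 ratio to the primary mean was -0.026, -0.31 and -0.39 in lines 3, 4 and 5. The median ratio of all tested genes on that chromosome was -0.11, -0.30 and -0.30 in the same lines. Rad52, a strand-annealing protein, had 6.1, 7.28 and 6.51 and 8.18, 6.4 and 9.87 CPM (0.30) and was the higher of the group's positive values, the other being Brca2 (0.15). Palb2 (-0.61), Bard1 (-0.48), Brca1 (-0.39), Xrcc3 (-0.25) and Xrcc2 (-0.13) were negative, and each overlapped between states. All 3 Fanconi anemia genes were negative, Fanca at -0.11 and Fanci at -0.16. For Fancd2, which with FANCI is ubiquitinated at crosslinks, CPM was 7.36, 7.82 and 8.92 in primary MEFs and 9.39, 5.6 and 2.61 in lines 3, 4 and 5 (Log2FC -0.45, SE 0.45, adjusted p-value 0.631). Line 3 lay above the primary libraries and line 5 far below. Of the RecQ helicases, Wrn had 22.2, 22.2 and 23.5 and 24.2, 28.7 and 22.8 CPM (0.16) and Blm had a Log2FC of -0.17, both overlapping.

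In mismatch repair, Msh6 was lower in every WT line. It lies at chr17:87975062-87990892 (GRCm38, plus strand), and its CPM was 48.4, 45.1 and 47.2 in primary MEFs and 40.6, 35.2 and 41.4 in the lines, 46.9 ± 1.7 against 39.1 ± 3.4 (SD, n = 3 and 3). The Log2FC was -0.26 (SE 0.095, 95% interval -0.50 to -0.029) and the adjusted p-value 0.209. Pms2, of the nuclease that follows, overlapped (-0.19). Parp1, of base excision repair, was lower in every line too: 79.4, 77.7 and 77.6 CPM in primary MEFs and 76.8, 63.5 and 55 in the lines (Log2FC -0.27, SE 0.13, adjusted p-value 0.34). Apex1 overlapped, with 45.3, 43.6 and 43.7 and 51.3, 46.7 and 41.9 CPM (0.077), as did Ogg1 (0.051) and Mutyh (-0.27). Xpc, the global sensor of bulky adducts, had 12.5, 11.7 and 11.4 and 13.4, 11.3 and 14.2 CPM (0.13), and the states overlapped, as for Ercc1 (0.17) and Ddb2 (-0.028). Polh, the translesion polymerase for ultraviolet lesions, had 14.6, 13.9 and 15.3 CPM in primary MEFs and 13.3, 11.4 and 12.3 in the lines (Log2FC -0.24, SE 0.11, adjusted p-value 0.289), lower in every line.

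**Figure D2:**
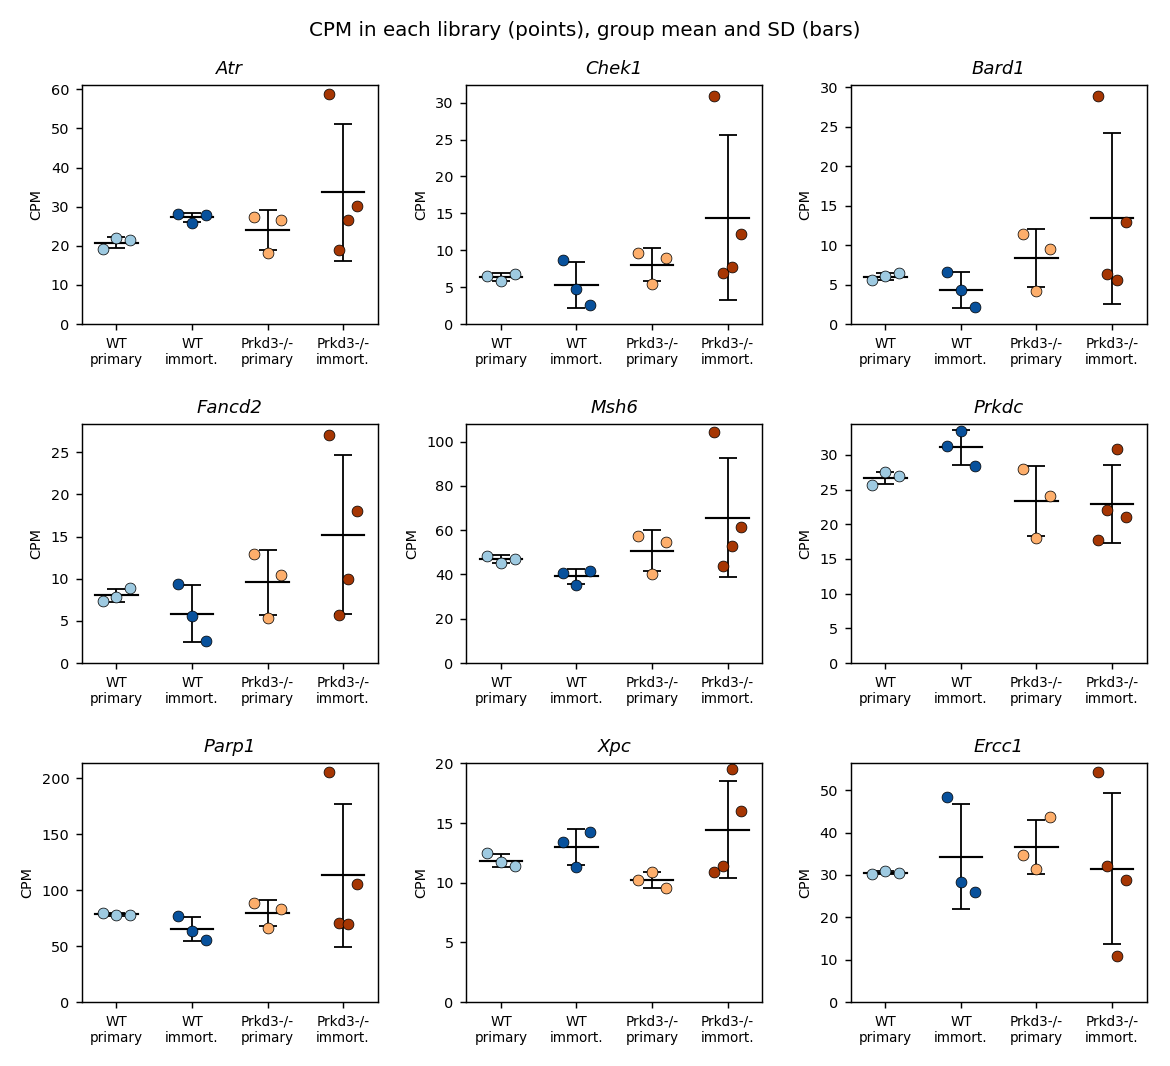
CPM (y axis, from 0) of 9 of the genes in each of the 13 libraries, grouped by genotype and state, with group mean and SD. Atr is higher in all 3 WT lines than in the WT primary libraries, and in 7 of the panels (all but Prkdc and Xpc) Prkd3-/- line 13 is the highest point.

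The test in the Prkd3-/- libraries called no gene anywhere, so a count of 0 says little about these 36. Of the 36, 0 passed either threshold, as did 0% of the 20298 genes tested, and 0 had an unadjusted p under 0.05, against 6.56% of all genes. DESeq2 also called 0 of the 36, against 1.45% of its genes. The signs were uneven: 31 of 36 Log2FC values were positive, with a median of 0.35 against 0.068 over all genes tested. The negative ones were Ercc1 (-0.24), Rad54l (-0.16), Ddb2 (-0.097), Prkdc (-0.032) and Mutyh (-0.024). The size of the median rested on line 13. Without it, 25 of 36 were positive and the median was 0.072, beside 0.032 for all genes. Without primary library 14 the median was 0.21, and with lines 13 and 13a summed to 1 library it was 0.20. No gene had its lines wholly above or wholly below the primary libraries, which happened for 4.19% and 5.26% of all genes. The 95% interval lay within a 2-fold change for 14 of 36 genes (38.9%), close to the 38.4% of all genes.

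Within the Prkd3-/- libraries, the smallest p of the 36 belonged to Xrcc5. Its CPM was 30.8, 19.6 and 24.4 in primary MEFs of clones 13, 14 and 15 and 46.6, 26.8, 35.4 and 33.1 in lines 13, 13a, 14 and 15 (Log2FC 0.50, SE 0.25, adjusted p-value 0.79). Xpc had 10.3, 10.9 and 9.54 CPM in primary MEFs and 10.9, 11.4, 19.5 and 16 in the lines (Log2FC 0.49, SE 0.27, adjusted p-value 0.825), with lines 14 and 15 above the rest. Wrn, at 25.6, 17.1 and 18.6 and 29.5, 17.6, 33.2 and 36.8 CPM (Log2FC 0.51, SE 0.29, adjusted p-value 0.828), had line 13a among the primary libraries. The largest Log2FC was that of Chek1, 0.83 (SE 0.56, adjusted p-value 0.843), whose CPM was 9.59, 5.46 and 8.98 in primary MEFs and 30.9, 6.86, 7.71 and 12.2 in the lines. Without line 13 the Log2FC was 0.16. Rad52 was at 6.04, 5.93 and 5.58 and 7.27, 5.84, 6.82 and 11 CPM (0.39), with line 15 highest. Polh was at 28.6, 20.6 and 27.9 and 46.1, 21, 23.7 and 25.3 CPM (0.16), with line 13 apart from the other lines. Rad50 was at 42.2, 29.6 and 38.6 and 57.5, 37, 35.9 and 47.2 CPM (0.26), and primary library 14 was lowest. Atr, the gene with the smallest p in WT, had 27.4, 18.3 and 26.6 CPM in primary MEFs and 58.9, 19, 26.5 and 30.1 in the lines, so that line 13a sat among the primary libraries (Log2FC 0.47, 95% interval -0.44 to 1.37). The interval holds both 0 and the WT value.

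Whether immortalization moved these genes differently in the genotypes was tested over all 13 libraries, and no gene passed. Of the 36 genes, 0 had an adjusted p-value under 0.05 for the difference (0% of 21197 genes did) and 0 an unadjusted p under 0.05 (3.97% did). DESeq2 called 0 of the 36, against 0.178% of its genes. The difference, Prkd3-/- Log2FC minus WT Log2FC, was positive for 30 of 36 genes with a median of 0.35 (0.056 over all genes), and without line 13 for 25 with a median of 0.10. With library size alone it was positive for 34, with a median of 0.47 beside 0.18 for all genes. The largest differences were those of Bard1 (1.16, 95% interval -0.71 to 3.02), Fancd2 (1.12, -0.59 to 2.84) and Chek1 (1.1, -0.61 to 2.81), none of which excludes 0. For Lig4 the difference was -0.058 with an interval of -0.48 to 0.37, the narrowest among the genes named here.

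Single libraries differed in the level of the whole set. The mean log2 CPM of the 36 genes was 3.88 to 3.91 in the 3 WT primary libraries, and 4.04, 3.80 and 3.58 in WT lines 3, 4 and 5. In Prkd3-/- primary libraries 13, 14 and 15 it was 4.22, 3.74 and 4.08, and in lines 13, 13a, 14 and 15 it was 4.84, 3.82, 3.93 and 4.32. The WT lines lay on both sides of the WT primary libraries, and line 13 lay above every other library. Averaged by state, the lines minus the primary MEFs came to -0.089 in WT and 0.21 in Prkd3-/-, each smaller than the SD between lines (0.23, n = 3, and 0.46, n = 4). The SD between primary libraries was 0.017 in WT (n = 3) and 0.25 in Prkd3-/- (n = 3). Without WT line 5 the WT value was 0.026, without WT line 3 it was -0.21, and without line 13 the Prkd3-/- value was 0.011.

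**Figure D3:**
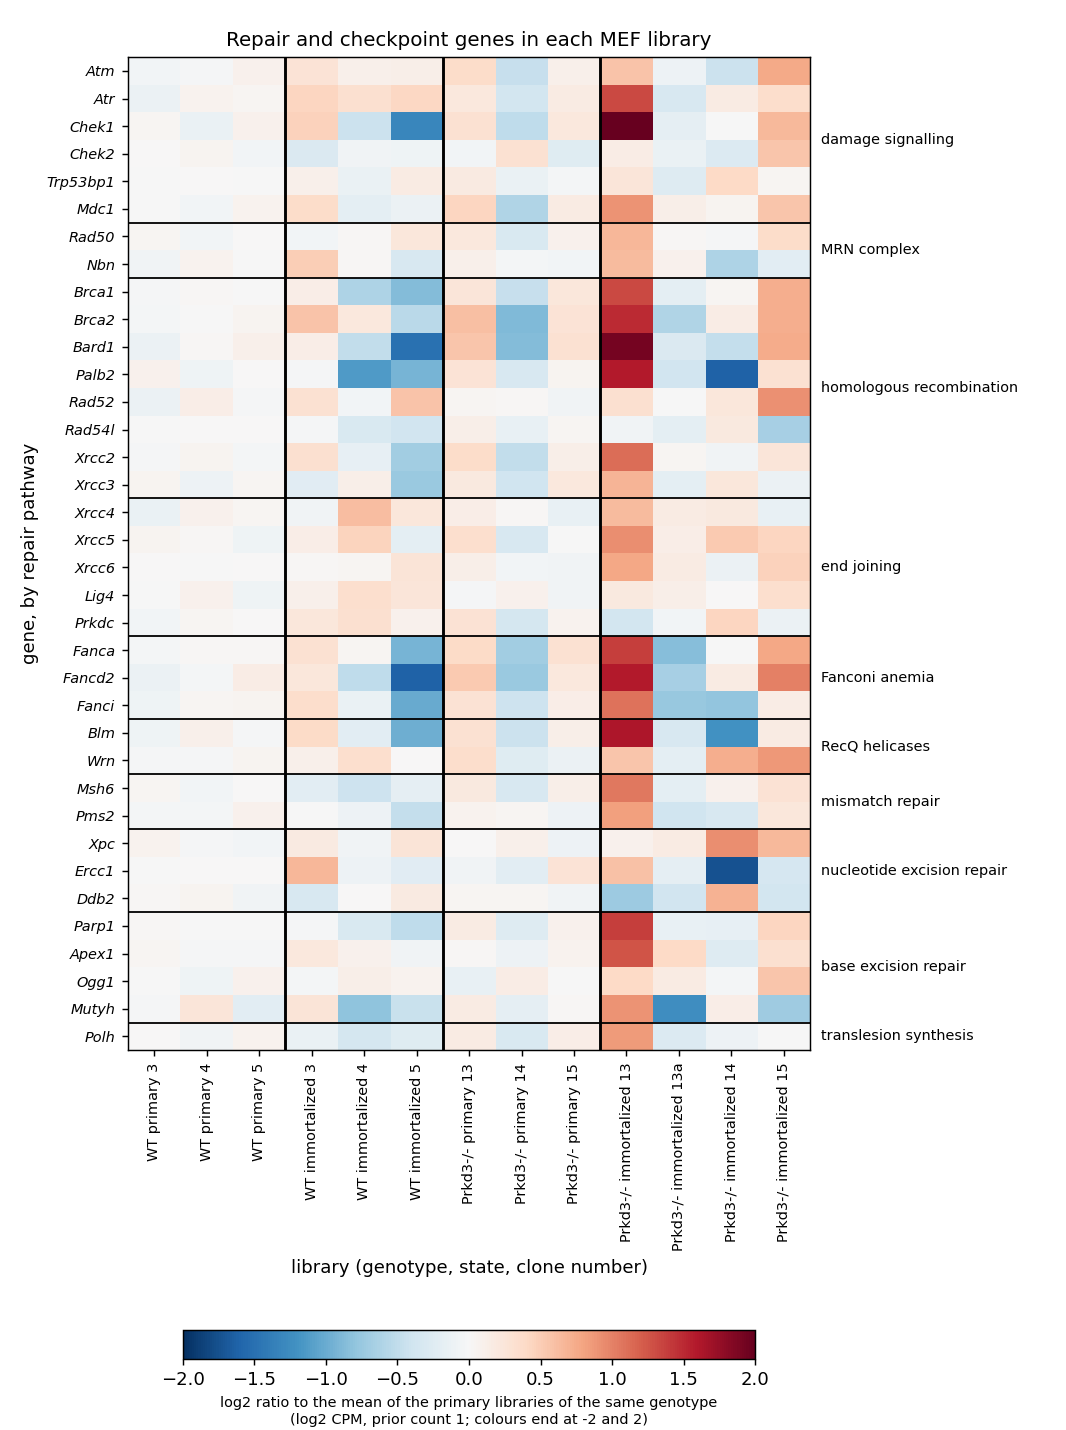
Log2 ratio of each of the 36 genes (rows, by repair pathway) in each of the 13 libraries (columns) to the mean of the primary libraries of its genotype; red is higher and blue lower. Prkd3-/- line 13 is red in 33 of 36 rows, WT line 5 is blue in 23 rows, among them 7 of 8 recombination and all 3 Fanconi rows, and the darkest blue rows of Prkd3-/- line 14 are Ercc1, Palb2 and Blm.

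Prkd3-/- line 13 had the highest CPM of the 7 libraries for 25 of the 36 genes, against 28.2% of all genes tested. It was at least 2-fold above the primary mean for 14 of 36 (38.9%), against 10.2% of all genes, and its median ratio was 0.84 on the log2 scale. These genes and those of WT line 5 were singled out after their values were seen, and no test was made of a single line. The checkpoint kinase Chek1 had the largest ratio (1.99). Bard1, the obligate partner of BRCA1, followed with 11.4, 4.21 and 9.54 CPM in primary MEFs and 28.9, 6.32, 5.55 and 12.9 in lines 13, 13a, 14 and 15, a ratio of 1.91 in line 13. Next came the helicase Blm (1.61), Fancd2 (1.59), Palb2 (1.58) and Brca2 (1.49). Fancd2 was at 12.9, 5.37 and 10.4 CPM in primary MEFs and 27.1, 5.67, 10.0 and 18 in the lines, so that line 15 was high as well. Parp1, which is abundant in every library, was at 88.1, 66 and 83.5 and 205, 70.9, 70.1 and 106 CPM (1.39), and Msh6 at 57.5, 40.1 and 54.7 and 104, 43.8, 53.1 and 61.3 CPM (1.06). Apex1 was at 53.9, 49.5 and 55.3 and 127, 69.5, 44.4 and 65.9 CPM (1.26), and its overlapping neighbour Pip4p1 was also highest in line 13, at 133 CPM.

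By pathway, the ratios in line 13 were unequal. The median was 1.39 for the 3 Fanconi genes, 1.22 for the 8 recombination genes, 1.08 for base excision repair, 0.73 for damage signalling, 0.63 for end joining and 0.089 for nucleotide excision repair. Only 3 genes were below the primary mean there: Ddb2 (-0.72), which binds ultraviolet lesions, Prkdc (-0.37) and Rad54l (-0.071). The overlapping neighbours of Ddb2 and Rad54l were low in line 13 as well. Acp2, which overlaps Ddb2, was at 38.8 CPM against 57.9 to 68.8 in primary MEFs of that genotype. Lrrc41, which overlaps Rad54l, was at 69.8 CPM against 91.4 to 103. Prkdc was at 27.9, 18 and 24 CPM in primary MEFs and 17.7, 22, 30.9 and 21.1 in the lines, with line 13 lowest of all 7 libraries. In the same line the 20 S phase markers had a median ratio of 1.65 and the 20 G2/M markers of 1.61, both above the 0.84 of the repair genes. The 20 p53 target genes had a median of -1.32, all 20 below the primary mean, with Cdkn1a at 109.8 CPM against 411 to 594 in primary MEFs. The part of cell cycle and p53 output in the level of the repair genes was not tested.

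WT line 5 was the reverse case. It had the lowest CPM of the 6 WT libraries for 17 of the 36 genes, against 22.9% of all genes tested, and WT line 3 had the highest for 16, against 26.4%. Line 5 was at least 2-fold below the primary mean for 4 genes (11.1%), near the 13% of all genes: Fancd2 (-1.61), Bard1 (-1.5), Chek1 (-1.3) and Fanci (-1.01). Bard1 had 5.53, 6.11 and 6.42 CPM in primary MEFs and 6.61, 4.25 and 2.12 in lines 3, 4 and 5. The medians by pathway in line 5 were -1.01 for Fanconi genes and -0.72 for recombination, against 0.22 for end joining and 0.18 for nucleotide excision repair. The S phase markers had a median ratio of -1.07 and the G2/M markers of -1.45 in that line, and 0.17 and 0.17 in line 3. Mki67, a marker of cycling cells, counted 218, 142 and 43.2 CPM in lines 3, 4 and 5. In line 13 and in WT line 5 the medians of the recombination and Fanconi genes had the sign of the cell cycle markers. The end joining median was above 0 in both. The change of sign was not particular to these pathways. Both mismatch repair genes, Msh6 (1.06 and -0.18) and Pms2 (0.81 and -0.48), and the translesion gene Polh (0.86 and -0.25) showed it too. The part of the cell cycle in these ratios was not tested.

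**Figure D4:**
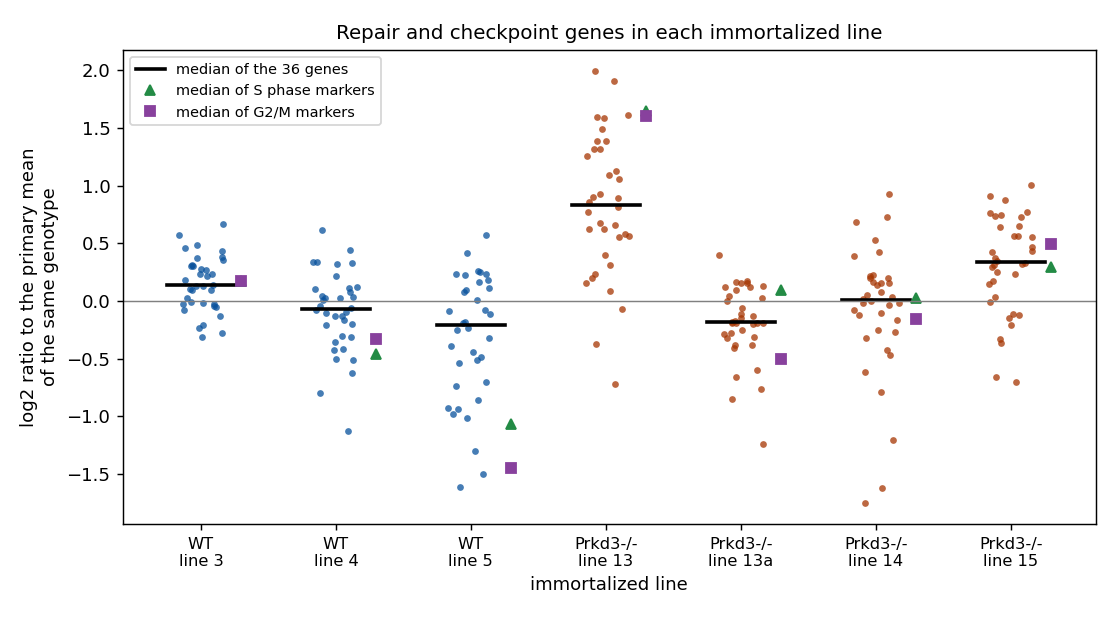
Log2 ratio of the 36 genes (points) to the primary mean of their genotype in each of the 7 immortalized lines, with their median (black bar) and the medians of 20 S phase and 20 G2/M markers. The median of the repair genes runs from -0.21 in WT line 5 to 0.84 in Prkd3-/- line 13, and in both lines the cell cycle medians lie farther from 0.

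Lines 13 and 13a share a clone number. Line 13 was higher for 33 of 36 genes, by at least 2-fold for 16, with a median difference of 0.83 on the log2 scale against -0.023 for all genes. The largest differences were 2.25 for Fancd2 and 2.24 for Fanca, subunits of the crosslink pathway. Fanca was at 22.6, 10.7 and 21.4 CPM in primary MEFs and 45.4, 9.62, 17.3 and 29.6 in the 4 lines. Macrophage markers summed to 178 CPM in line 13a and 17.9 in line 13. Among the primary cultures, library 14 was lowest of the 7 for 16 of the 36 genes, against 12.7% of all genes. It also had the highest macrophage marker sum of that genotype, 1008 CPM against 89.9 and 213 in libraries 13 and 15, and the lowest sum of S phase markers, 737 against 1189 and 1159. Their part in the low repair genes of that library was not tested.

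In Prkd3-/- lines 14 and 15 some genes were high or low together with the other genes of their chromosome. Chromosome medians away from 0 were not particular to these lines. For chromosome 4 the median ratio of the tested genes was -0.30 in WT line 4, -0.30 in WT line 5 and -0.42 in Prkd3-/- line 13. In Prkd3-/- line 14 the median ratio of the 1639 tested genes on chromosome 7 was -0.62, and all 10 segments of the chromosome, of about equal gene number, lay between -0.87 and -0.42. The 4 repair genes on chromosome 7 were all low in that line. Ercc1, the partner of XPF in the excision nuclease, lies at chr7:19344778-19356524 (GRCm38) and had 34.6, 31.4 and 43.6 CPM in primary MEFs and 54.2, 32, 10.8 and 28.7 in lines 13, 13a, 14 and 15, a ratio of -1.75 in line 14. Palb2 (-1.62), Blm (-1.2) and Fanci (-0.79) followed. All 4 lay below the chromosome's own median. Ercc1, Palb2 and Blm were the only 3 of the 36 genes at least 2-fold below the primary mean in line 14 (8.33%, against 15.3% of all genes). Palb2 was at 0.828 CPM there, against 3.11, 2.06 and 2.66 in primary MEFs. The other nucleotide excision repair genes were not low in line 14: Xpc (0.93) and Ddb2 (0.69) were above the primary mean.

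In Prkd3-/- line 15 the chromosome medians were -0.60 for chromosome 4, -0.52 for chromosome 16 and 0.55 for chromosome 6. Of all 36 genes, 27 were above the primary mean in that line. The 4 repair genes on chromosome 6 were among them, Fancd2 by 1.01, Rad52 by 0.91, Xpc by 0.64 and Ogg1, an 8-oxoguanine glycosylase, by 0.56. The 3 genes on chromosome 4 were among the 9 below it, Mutyh at -0.70, Rad54l at -0.66 and Nbn at -0.21. Rad54l had 52.3, 43.7 and 49.5 CPM in primary MEFs and 46, 42.3, 55.4 and 30.7 in the lines, and its overlapping neighbour Lrrc41 was also lowest in line 15, at 59.6 CPM. Prkdc, on chromosome 16, was near the primary mean (-0.12). Copy number was not measured, and the chromosome medians are ratios of RNA.

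**Figure D5:**
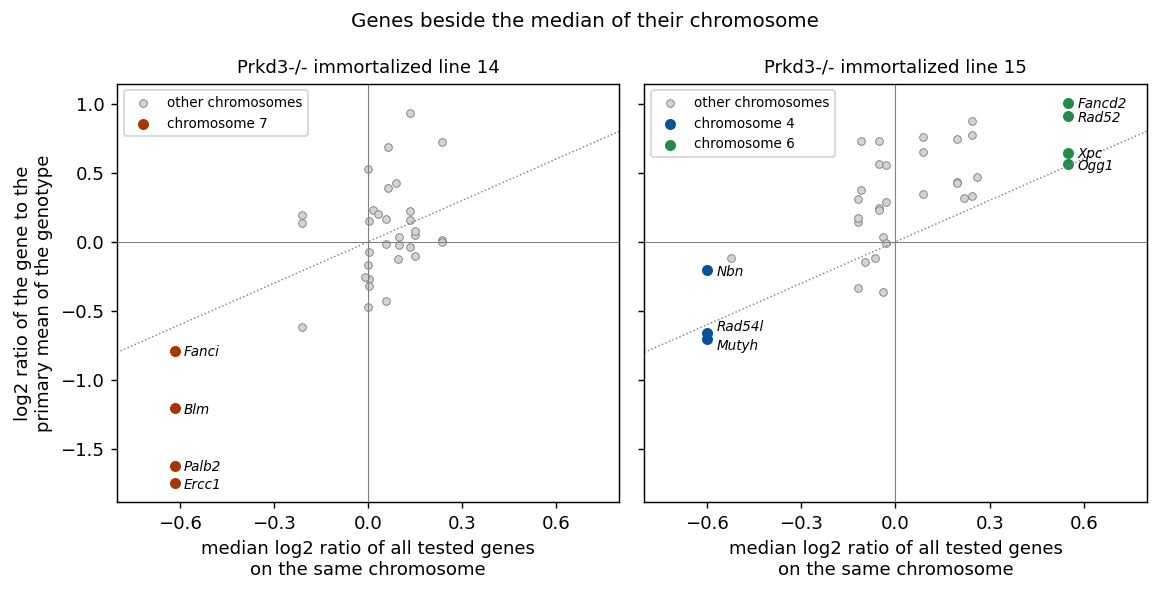
Log2 ratio of each of the 36 genes to the primary mean (y axis) against the median ratio of all tested genes on its chromosome (x axis) in Prkd3-/- lines 14 and 15; the dotted line marks equality. In line 14 the 4 genes on chromosome 7 (median -0.62) are the lowest of the 36, and in line 15 the 3 genes on chromosome 4 lie below 0 and the 4 on chromosome 6 above.

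The wider repair list showed the same absence of calls. Of 104 other repair genes, 0 passed an adjusted p-value under 0.05 in WT, 8 had an unadjusted p under 0.05 (19.7% of all genes did) and DESeq2 called 4 (10.8% of its genes). Their median Log2FC in WT was -0.077 with 42 positive, and 8 had every line above and 21 every line below the primary libraries, against 13.9% and 17.4% of all genes. In Prkd3-/-, 0 passed, 6 had an unadjusted p under 0.05 (6.56% of all genes did), and 86 of 104 were positive, with a median of 0.23. Line 13 was at least 2-fold above the primary mean for 34 of the 104 (32.7%), against 10.2% of all genes. None of 20 S phase and none of 20 G2/M markers passed in either genotype, although 17 and 19 of them were negative in WT. Of the 20 p53 target genes, 11 had a negative Log2FC in WT. By edgeR 1 of the 20 had an adjusted p-value under 0.05, against 5.27% of all genes. That gene was Perp, a membrane protein of p53-dependent apoptosis, lower in the lines (Log2FC -1.27, SE 0.15, adjusted p-value 0.00803). DESeq2 called 3 of the 20, against 10.8% of its genes. With the clone number as a block the adjusted p-value of Perp was 0.0814, so that the call was lost. None of the p53 target genes passed in Prkd3-/-. All 10 macrophage markers had a negative Log2FC in WT. By edgeR 8 of the 10 had an adjusted p-value under 0.05, against 5.27% of all genes. With the block 7 passed, as did 214 of all 19836 genes tested.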

How the data were processed

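Poly-A RNA was sequenced as 100-base read pairs. Per the labels and the methods, reads were aligned to mm10 with STAR 2.7.10a, sorted with SAMtools 1.18 and counted per gene with featureCounts (Subread 2.0.6) on Ensembl release 102. The authors deposited raw counts (read pairs per gene), 1 table per genotype. The WT header shows counting of pairs with both ends mapped, given to every overlapped gene, without strand. The counting options of the Prkd3-/- table are not given in the sources used here.

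Counts were fitted on all genes with edgeR 4.0.16 (TMM, filterByExpr, robust quasi-likelihood F test, Benjamini-Hochberg over all genes tested) in R 4.3.3, per genotype, and for the difference between genotypes over all 13 libraries. DESeq2 1.42.0 and limma 3.58.1 (voom with a weight per group) were alternatives, with other scalings, filters, a clone block and each library left out in turn. CPM used TMM over 13 libraries and log2 CPM a prior count of 1. RPKM used the length in the files. Intervals are 95%. WT primary cultures came from different embryos, and each WT line from the culture of 1 of these embryos. The main WT fit left them unpaired, and the clone block paired them. For the Prkd3-/- libraries p-values measure the spread between these samples.

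The clone numbers pair the WT states, since each line came from its embryo's culture. The deviations of same-numbered WT libraries from their group means correlated at -0.033, 0.019 and -0.039, and those of Prkd3-/- at 0.14 (13), -0.28 (13a), 0.088 (14) and 0.040 (15). Between differently numbered libraries the values ran from -0.032 to 0.062 in WT and from -0.31 to 0.34 in Prkd3-/-. The same-numbered values were therefore not set apart from the others. Between lines 13 and 13a the value was -0.51.

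The members and lists were chosen with earlier results of these data known. By rule, values in every library are given for members with an adjusted p-value under 0.05 in any comparison (none), for those with the smallest p of their pathway group in either genotype, and for the most abundant by RPKM. Of the other lists, at most 5 genes past 0.05 could be named. Other genes were named after their values were seen.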

Additional observations from a re-analysis of the deposited data

Results flagged for a closer look

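In 2 of the 37 groups of 4 libraries examined, 1 library stood apart by Dixon's criterion. Chance alone gives about 1 in 20, which is 1.85 of 37. Both are in the Prkd3-/- lines. Ddb2 counted 21.5 CPM in line 14, against 8.07 to 10.4 in the other 3 lines and 12.7 to 13.7 in primary MEFs of that genotype. Acp2, with which Ddb2 shares 23.8% of its exon bases, was likewise highest in line 14, at 98.9 CPM against 38.8 to 54.7 in the other lines. Polh counted 46.1 CPM in line 13, against 21.0 to 25.3 in the other 3 lines.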

How the results depend on the processing

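The count of 0 genes past an adjusted p-value under 0.01 with an absolute Log2FC of at least 1 held in both genotypes under every alternative run, and so did 0 at an adjusted p-value under 0.05 in Prkd3-/- and for the difference between genotypes. In WT the count at an adjusted p-value under 0.05 was 1 with DESeq2 (Atr), and 0 to 4 with 1 library left out: without WT line 3 it was 4 (Brca1, Palb2, Rad54l and Parp1, all lower in lines 4 and 5), where 12.2% of all genes passed. The cause was not tested. With the replicate block, which pairs libraries by clone number, 0 of the 36 genes passed in either genotype or for the difference. Over all genes tested in WT the block lowered the count at an adjusted p-value under 0.05 from 1045 to 214, and it lost Perp and 1 of the 8 macrophage markers. Of 540 refitted WT Log2FC values, 509 stayed within 1 SE, 26 moved farther, 5 passed the threshold and 20, of 16 genes with a Log2FC of at most 0.26 in size, had the opposite sign. Of 612 in Prkd3-/-, 603 stayed within 1 SE and 33, of 14 genes of up to 0.66, had the opposite sign, none of them called. All 792 values of the difference between genotypes stayed within 1 SE, and 35 of them, of 13 genes of up to 0.57, had the opposite sign. The mean log2 CPM of the 36, lines minus primary, moved by less than 1 SD between libraries under all alternatives run, from -0.22 to 0.026 in WT and from 0.011 to 0.35 in Prkd3-/-. The lowest level of any of the 36, that of Palb2 in Prkd3-/- line 14, lay above the level of 3 read pairs.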
